A study of Mus musculus with 8 samples.

Results

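The hypoxia-inducible factor (HIF) subunits and the enzymes that sense oxygen for them were examined in Tregs of mice that had gone through high-altitude de-acclimatization (HADA). Identifiers of the deposited count table were matched to gene symbols, and 8 of its 56980 genes were taken, namely the subunits Hif1a, Epas1 and Arnt, the prolyl hydroxylases Egln1, Egln2 and Egln3, the E3 ligase component Vhl and the asparaginyl hydroxylase Hif1an. The libraries came from Tregs sorted by flow cytometry from peripheral blood of male C57BL/6j mice, bought at 8 weeks of age. The HADA group (4 libraries) had lived for 28 days in a hypobaric chamber set to 6000 m before it was moved to normoxia, and the control group (4 libraries) had not been in the chamber. The gate of this sort and the day after the move on which it was done are not stated in the sources used here. Neither the labels nor the methods say whether each library came from a separate mouse, so the p-values measure the spread between these libraries, which may be technical.

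HIF is a dimer of an alpha subunit (Hif1a or Epas1) with the stable partner Arnt. In the presence of oxygen, Egln enzymes hydroxylate prolines of the alpha subunit, Vhl then binds it and directs its ubiquitination and degradation, and Hif1an hydroxylates an asparagine that blocks the binding of coactivators. Egln3 and, in many cells, Egln1 are themselves HIF target genes, so the pathway holds a feedback loop. Most of this control acts on the protein, and RNA counts do not show it. In T cells, HIF is known for its part in glycolysis and in the balance between Tregs and inflammatory T helper cells.

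Totals per library were between 22929193 and 28240337 counts in HADA and between 14452433 and 22584062 in control replicates 2 to 4, while control replicate 1 had 1477431. The total count differed between the groups (exact permutation test, two-sided, p = 0.0286, which is the lowest value possible with 4 against 4). Levels are given as CPM, the usual scaling of counts by library total, after TMM normalization of those totals. The TMM factors were between 0.628 (HADA replicate 4) and 2.24 (control replicate 2). The summed level of 10 Treg markers was 988 to 2992 CPM in HADA, 1002 in control replicate 1 and 280 to 727 in control replicates 2 to 4 (exact permutation test, p = 0.0571). The defining marker Foxp3 and the marker Tnfrsf18 are listed at 0 in all 8 libraries because other genes cover 100% of their spans, so the sum rests on 8 genes. Il2ra, which encodes CD25, had 163 to 748 CPM in HADA, 178 in control replicate 1 and 7.23 to 59.5 in control replicates 2 to 4. Control replicate 1 stood apart from the other control libraries in depth, in this sum and in Il2ra. Not every marker went this way, as Ikzf2 had 125 CPM there and 211 to 287 in control replicates 2 to 4. Tigit (27.3 CPM) and Cd4 (199 CPM) of control replicate 1 lay inside the range of control replicates 2 to 4. The values of the HIF and oxygen-sensing genes are given with and without control replicate 1.

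Hif1a, which encodes the alpha subunit best known for the acute hypoxic response, could not be measured. Hif1a (ENSMUSG00000021109, GRCm39, chr12:73948149-73994304, plus strand) was listed at 0 counts in all 8 libraries. Other genes of the table cover 100% of its span, among them the antisense transcript Gm15283 (ENSMUSG00000087700, chr12:73889813-73996588, minus strand), and 21.4% is covered on its own strand. Of the 1077 protein-coding genes of the table whose whole span is covered, all 1077 were listed at 0 in every library. Of these, 630 were covered over less than 50% of the span on their own strand, and all 630 were at 0 too. The 0 of Hif1a is thus no measurement of its RNA. Gm15283 itself had 53 to 120 counts in HADA and 4 to 393 in control.

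Promoters of the prolyl hydroxylases are shown here because one of each holds the letters ACGTG, with that of Vhl as one without them. These letters are one form of the core of the hypoxia response element, which HIF binds, and other forms were not searched. The window of Hif1an does not hold these letters either. Each is the 250 bases before a RefSeq transcription start (table of build GRCm38.p6, located by exact match in GRCm39), written along the strand of the gene, with the letters ACGTG on either strand in capitals. The windows are chr12:54250661-54250910 (minus strand) for Egln3, chr8:125675994-125676243 (minus strand) for Egln1, chr7:26866228-26866477 (minus strand) for Egln2 and chr6:113600705-113600954 (plus strand) for Vhl.
Egln3: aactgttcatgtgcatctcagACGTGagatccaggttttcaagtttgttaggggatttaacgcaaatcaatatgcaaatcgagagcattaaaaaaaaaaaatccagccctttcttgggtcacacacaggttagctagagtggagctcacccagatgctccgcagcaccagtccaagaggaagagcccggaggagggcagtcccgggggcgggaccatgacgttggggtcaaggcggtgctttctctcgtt
Egln1: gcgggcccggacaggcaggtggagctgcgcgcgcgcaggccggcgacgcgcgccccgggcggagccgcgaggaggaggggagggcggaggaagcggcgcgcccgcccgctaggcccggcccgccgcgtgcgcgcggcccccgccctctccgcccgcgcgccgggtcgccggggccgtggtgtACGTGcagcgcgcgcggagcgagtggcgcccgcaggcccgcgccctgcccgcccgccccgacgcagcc
Egln2: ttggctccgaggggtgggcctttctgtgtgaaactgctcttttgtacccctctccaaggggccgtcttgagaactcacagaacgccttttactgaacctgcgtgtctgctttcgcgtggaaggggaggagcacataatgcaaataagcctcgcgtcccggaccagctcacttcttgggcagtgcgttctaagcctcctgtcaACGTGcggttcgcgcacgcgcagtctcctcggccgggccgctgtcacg
Vhl: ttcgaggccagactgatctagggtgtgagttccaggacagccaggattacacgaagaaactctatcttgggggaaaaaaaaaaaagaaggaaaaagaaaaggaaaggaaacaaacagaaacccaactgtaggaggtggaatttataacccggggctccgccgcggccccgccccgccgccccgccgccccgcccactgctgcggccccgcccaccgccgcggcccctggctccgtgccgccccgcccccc
Counted back from the start, the match begins at position -229 in Egln3, -68 in Egln1 and -48 in Egln2, and the other window of Egln2 (chr7:26865154-26865403) holds none. In all, 4 of the 7 genes with a window hold a match, the other one being Hif1a, against 16.6% of 32851 promoters of this length. The letters TGACNNNGC, the core of the antioxidant response element, occur on either strand in Arnt only, at positions -127 and -50, and in 10.2% of the promoters. A match of letters is a description of the window and not of binding.

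Over all 8 libraries, none of the 7 genes that could be tested passed the thresholds of a Benjamini-Hochberg adjusted p below 0.05 over 21991 genes and a log2 fold change beyond 1 (edgeR's quasi-likelihood test), against 1.65% of all genes called higher and 0.477% called lower in HADA. All 7 passed the filter on low counts. At an unadjusted p below 0.05 there were 2 of 7, Egln3 on the higher side and Epas1 on the lower side, where 26.7% of all genes were. No gene of the 7 had all HADA libraries below all control libraries (5.70% of all genes). DESeq2 called these 2 genes, Egln3 higher (6.27% of all genes called) and Epas1 lower (10.2%). Without control replicate 1, edgeR called 4 of 7 higher (Egln2, Egln3, Vhl and Hif1an) where it called 15.5% of all genes, and 1 of 7 lower (Epas1) where it called 19.7%. In that fit 6 of 7, all but Egln1, had an unadjusted p below 0.05, beside 48.7% of all genes. In this bulk RNA, fewer cells that express a gene and less of its RNA per cell cannot be told apart.

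**Figure D1:**
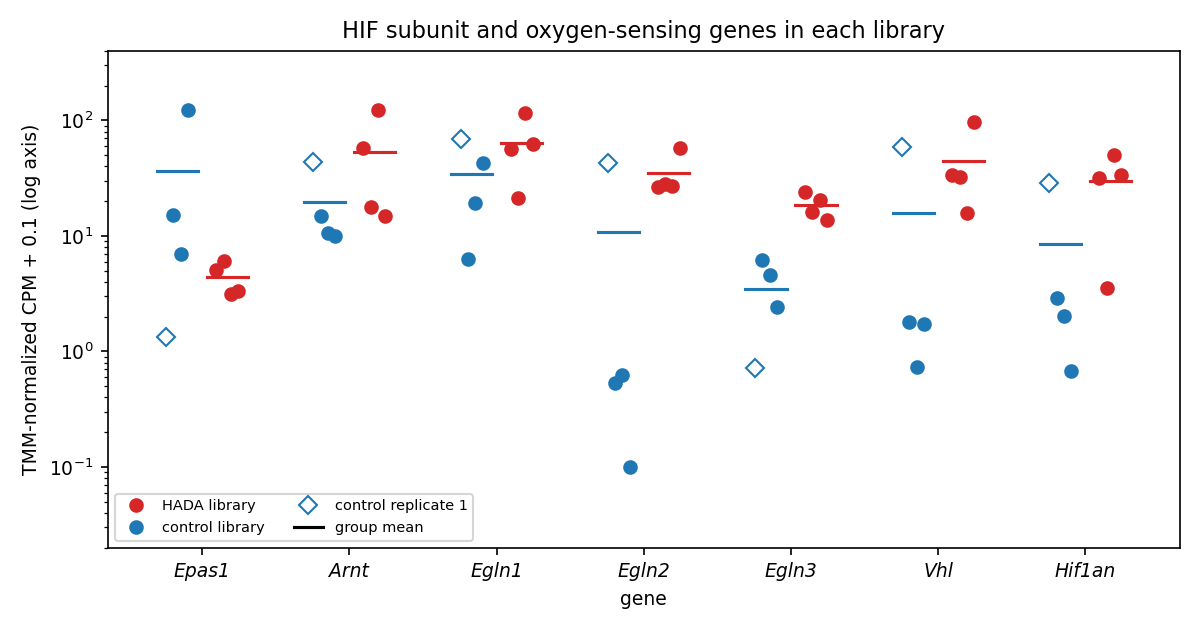
TMM-normalized CPM plus 0.1 (log axis) of 7 genes in each library, with HADA in red, control in blue, control replicate 1 as an open diamond and the group mean as a bar. Only for Egln3 do all 4 HADA libraries lie above all 4 control libraries, and for Egln2, Vhl and Hif1an control replicate 1 lies far above the other control libraries.

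Egln3 (ENSMUSG00000035105, chr12:54225767-54250646, minus strand) encodes the prolyl hydroxylase that is a common marker of HIF activity. It had 24.0, 16.1, 20.5 and 13.7 CPM in HADA replicates 1 to 4 and 0.621, 6.04, 4.47 and 2.32 in control replicates 1 to 4, on 228 to 609 counts in HADA and 1 to 193 in control. On this TMM scale every HADA library lay above every control library, which held for 1 of the 7 genes and for 9.13% of all genes tested. As a share of the library total, without TMM, the groups overlapped. HADA replicate 4 (0.000857%) then lay below control replicate 2 (0.00134%). The level was 18.6 ± 4.59 CPM in the 4 HADA libraries (mean ± SD) against 3.36 ± 2.38 in the 4 control libraries, a log2 fold change of 2.42 (standard error 0.81, 95% interval 0.65 to 4.19, unadjusted p = 0.0115, adjusted p = 0.115 from edgeR). Its log2 fold change was between 2.17 and 2.84 when each library was left out in turn. Without control replicate 1 it was 2.27 (standard error 0.55, adjusted p = 0.0198 from edgeR), and DESeq2 on all libraries gave 2.15 (adjusted p = 0.0219). Drawing every library down to the smallest total gave 1.08 (adjusted p = 0.601 from edgeR), library totals without TMM gave 1.45 (adjusted p = 0.389 from edgeR), and subtracting the receptor background, which left its 4 control values at 0 so that the fit is no measure of size, gave 10.8 (adjusted p = 0.0945 from edgeR).

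Egln2 (ENSMUSG00000058709, chr7:26858083-26866227, minus strand) encodes the prolyl hydroxylase also called PHD1. Its levels were 26.5, 28.1, 26.8 and 57.2 CPM in HADA and 42.3, 0.438, 0.524 and 0 in control replicates 1 to 4. The 0 of control replicate 4, in 21587245 counts, allows up to 0.174 CPM, counting error only. Control replicate 1, with 68 counts of Egln2, lay among the HADA libraries, and the other control libraries had at most 15 counts. The log2 fold change was 1.73 (standard error 1.61, 95% interval -1.77 to 5.24, adjusted p = 0.471 from edgeR) over all libraries and 6.85 (standard error 1.24, adjusted p = 0.0101 from edgeR) without control replicate 1. No other single library changed the call of Egln2.

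Vhl (ENSMUSG00000033933, chr6:113600920-113608594, plus strand), the substrate receptor of the ligase, had 33.5, 32.5, 15.6 and 97.5 CPM in HADA and 58.4, 1.69, 0.629 and 1.62 in control. Control replicate 1 again lay inside the HADA range, and control replicates 2 to 4 had 18 to 54 counts against 264 to 1621 in HADA. The log2 fold change was 1.56 (standard error 1.34, 95% interval -1.36 to 4.48, adjusted p = 0.437 from edgeR), and 5.23 (standard error 0.93, adjusted p = 0.00981 from edgeR) without that library. Without HADA replicate 4, the highest, it was 0.88 (adjusted p = 0.721 from edgeR).

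Hif1an (ENSMUSG00000036450, chr19:44551289-44564713, plus strand), which encodes factor inhibiting HIF, had 31.3, 3.43, 49.97 and 33.5 CPM in HADA and 28.6, 2.79, 1.92 and 0.579 in control. HADA replicate 2 was close to the 3 low control libraries, and control replicate 1 to the 3 high HADA libraries. The log2 fold change was 1.86 (standard error 1.23, 95% interval -0.81 to 4.53, adjusted p = 0.317 from edgeR) and 4.22 (standard error 1.05, adjusted p = 0.0216 from edgeR) without control replicate 1.

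Egln1 (ENSMUSG00000031987, chr8:125635326-125676063, minus strand), the main prolyl hydroxylase for HIF in most cells, overlapped between the groups with and without control replicate 1. It had 56.1, 21.2, 115 and 62.3 CPM in HADA and 68.4, 6.17, 19.0 and 42.3 in control. The log2 fold change was 0.91 (standard error 0.90, 95% interval -1.05 to 2.87, adjusted p = 0.497 from edgeR) and 1.61 (standard error 0.87, adjusted p = 0.169 from edgeR) without control replicate 1. The interval spans both directions, so these libraries do not separate the groups for Egln1, nor do they show equal levels.

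Among the subunits, Arnt (ENSMUSG00000015522, chr3:95341699-95404551, plus strand) had 57.3, 17.8, 122 and 14.7 CPM in HADA and 43.5, 14.6, 10.5 and 9.85 in control. HADA replicates 1 and 3 were high, while HADA replicates 2 and 4 stood barely above control replicates 2 to 4. The log2 fold change was 1.45 (standard error 0.94, 95% interval -0.61 to 3.50, adjusted p = 0.312 from edgeR), and 2.33 (standard error 0.88, adjusted p = 0.0700 from edgeR) without control replicate 1. Without HADA replicate 3 it was 0.71 (adjusted p = 0.658 from edgeR).

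Epas1 (ENSMUSG00000024140, chr17:87061128-87140838, plus strand), which encodes HIF-2 alpha and is strongly expressed in endothelium, was the one gene of the 7 with a negative log2 fold change. It had 4.97, 5.99, 3.07 and 3.25 CPM in HADA and 1.24, 15.1, 6.92 and 123 in control, where control replicate 1 had 2 counts and control replicate 4 had 2122. The groups overlapped through control replicate 1. The log2 fold change was -3.08 (standard error 1.22, 95% interval -5.73 to -0.43, adjusted p = 0.147 from edgeR), -3.38 (standard error 1.003, adjusted p = 0.0349 from edgeR) without control replicate 1 and -0.79 (standard error 0.87, adjusted p = 0.560 from edgeR) without control replicate 4. In control replicate 4 the endothelial markers Cdh5, Kdr and Tie1 were at 2.67, 4.52 and 1.74 CPM, inside the range of the other libraries, Vwf was at 11.1 CPM, the lowest of all, and Egfl7 was at 0. Tek and Emcn, like Epas1, were lower in every HADA library than in control replicates 2 to 4. That order held for 26.6% of all genes tested, and for no other endothelial marker of the list. Tek had 10.6 to 11.8 CPM in HADA, 29.6 to 37.5 in control replicates 2 to 4 and 3.73 in control replicate 1. Emcn had 4.81 to 7.92 CPM in HADA, 17.6 to 29.6 in control replicates 2 to 4 and 8.08 in control replicate 1. The summed level of 8 endothelial markers was 480 CPM in control replicate 4, mostly Pecam1 (409), while control replicates 1 to 3 had 108 to 319 and HADA 171 to 398. The part of endothelial RNA in the Epas1 values was not tested.

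**Figure D2:**
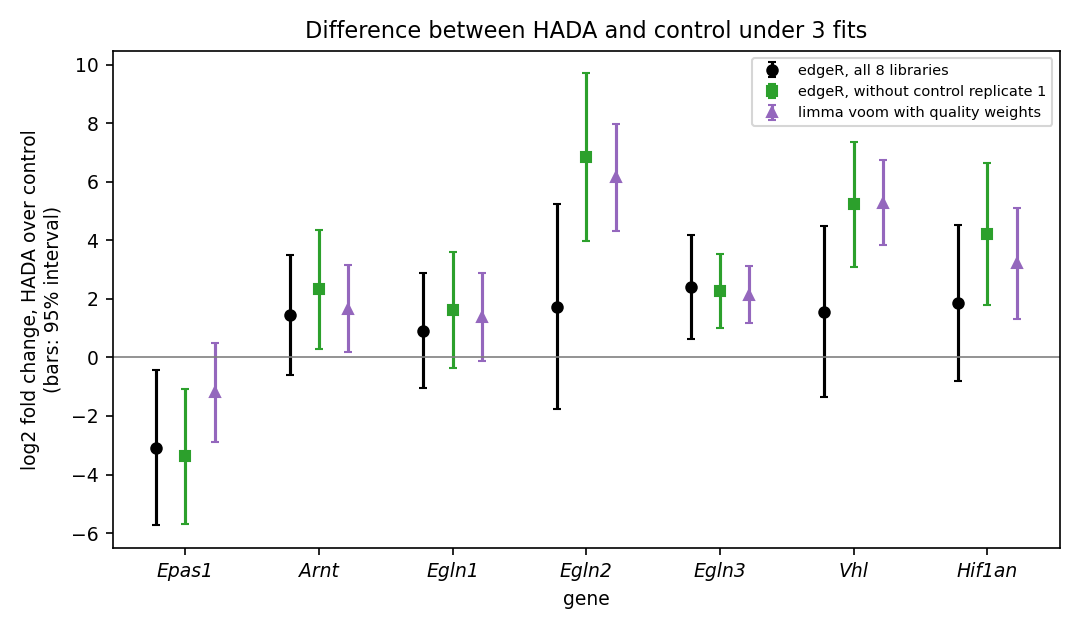
Log2 fold change of HADA over control with its 95% interval for 7 genes, from edgeR on all 8 libraries (black), edgeR without control replicate 1 (green) and limma voom with quality weights (purple). Egln3 lies near the same value in all 3 fits, while Egln2, Vhl and Hif1an move from 1.73, 1.56 and 1.86 to 6.85, 5.23 and 4.22 without control replicate 1.

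Another fit, limma voom, kept all 8 libraries and weighted each by its scatter. It gave control replicate 1 a weight of 0.146 and control replicate 3 a weight of 4.48, while the other libraries had 0.654 to 1.70. Its control side therefore rests mainly on control replicate 3. It called 4 of 7 genes higher, namely Egln2 (log2 fold change 6.16, adjusted p = 0.000738), Vhl (5.29, adjusted p = 0.000521), Egln3 (2.15, adjusted p = 0.00505) and Hif1an (3.21, adjusted p = 0.0135), where it called 23.6% of all genes higher and 25.5% lower. Arnt (1.67, adjusted p = 0.0595), Egln1 (1.38, adjusted p = 0.111) and Epas1 (-1.19, adjusted p = 0.215) were not called by limma, in which 5 of 7 and 56.6% of all genes had an unadjusted p below 0.05. In TMM-normalized CPM against control replicates 2 to 4 alone, all HADA libraries lay higher for Arnt, Egln2, Egln3, Vhl and Hif1an, which is 5 of 7 beside 18.4% of all genes, and lower for Epas1, which is 1 of 7 beside 26.6%. As shares of the library total, without TMM, Egln2 and Vhl stayed higher and Epas1 lower, but Arnt, Egln3 and Hif1an overlapped. Arnt was then at 0.000918% in HADA replicate 4 and 0.00323% in control replicate 2. Hif1an was at 0.000358% in HADA replicate 2 and 0.000616% in control replicate 2.

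Counts in this table cover whole gene spans, introns included, so each gene was also set against the density of counts on 1776 receptor genes of smell and pheromone sensing (olfactory and vomeronasal) without any overlapping gene. These receptors belong to sensory neurons. Their density was 0.0497 CPM per kilobase in control replicate 1, 0.200 to 0.332 in control replicates 2 to 4 and 0.115 to 0.198 in HADA (control minus HADA 0.0544, exact permutation test, p = 0.4). The difference was 0.110 without control replicate 1 (exact permutation test, p = 0.0571) and 0.131 without the 5% of receptor genes with the highest density (exact permutation test, p = 0.143), where control replicates 2 to 4 had 0.180 to 0.324 and HADA 0.0612 to 0.0891. In control replicates 2 to 4, Arnt (0.595 to 0.789 times that density), Egln2 (0 to 0.227 times), Egln3 (0.466 to 0.731 times) and Hif1an (0.216 to 0.625 times) stayed below it, and Vhl reached 1.06 times. Control replicate 1 was below it for Egln3 (0.503 times) and far above it for Egln2 (105 times), Vhl (153 times), Hif1an (42.9 times), Egln1 (33.8 times) and Arnt (14.0 times).

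In HADA all 4 libraries exceeded the receptor density for Vhl and the enzymes, by 16.5 to 61.2 times for Egln2, 12.7 to 110 times for Vhl, 1.46 to 23.2 times for Hif1an, 2.98 to 17.6 times for Egln1 and 3.70 to 5.14 times for Egln3. Arnt had 1.63 to 12.2 times the density. Epas1 stayed below it in all 4 HADA libraries (0.245 to 0.438 times) and in 3 of 4 control libraries, and reached 7.86 times in control replicate 4. Epas1 was therefore not separable from this background in HADA, and the same held against the receptor genes without their densest 5% (0.576 to 0.859 times in HADA).

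**Figure D3:**
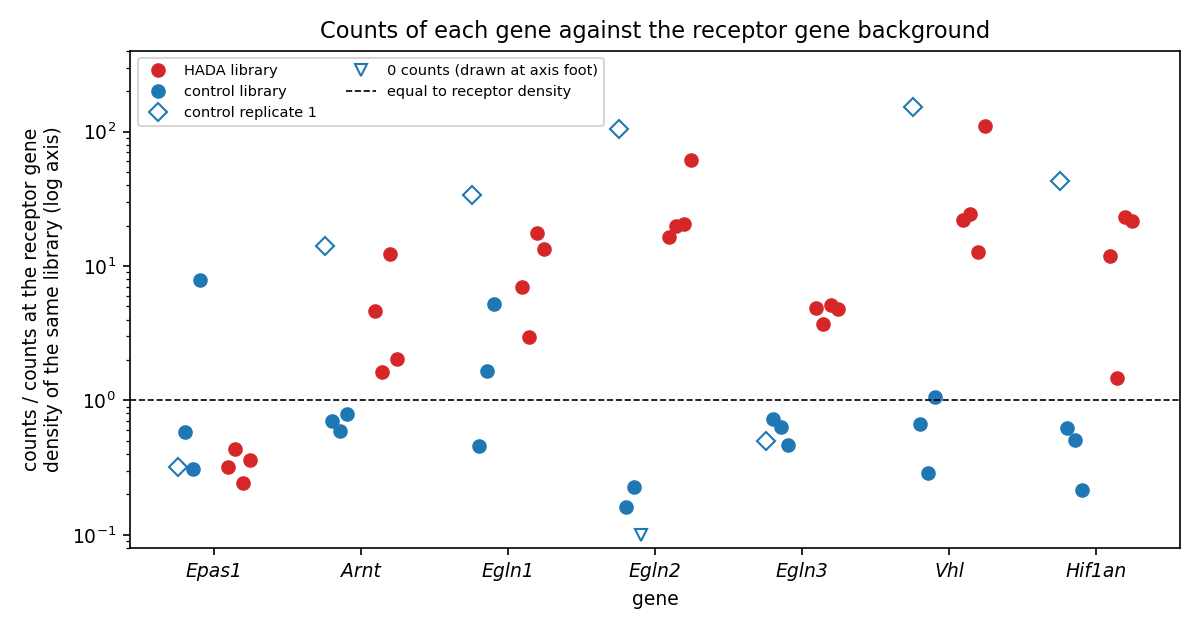
Counts of each gene divided by the counts expected for its length at the receptor gene density of the same library (log axis), with HADA in red, control in blue and control replicate 1 as an open diamond. HADA libraries lie above the dashed line at 1 for all genes but Epas1, and control replicates 2 to 4 lie below it except for Egln1 in 2 libraries and, in control replicate 4, Vhl (1.06) and Epas1 (7.86).

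Levels between genes were compared per kilobase of gene span. In HADA the mean level was 5.83 CPM per kilobase for Vhl, 4.25 for Egln2, 2.20 for Hif1an, 1.56 for Egln1, 0.844 for Arnt, 0.747 for Egln3 and 0.0542 for Epas1. Libraries of neighbours in this order overlapped, except that Egln3 and Epas1 were apart. Per kilobase of exon the order was Vhl (10.7), Egln1 (7.11), Egln3 (6.91), Arnt (5.67), Egln2 (4.45), Hif1an (2.60) and Epas1 (0.765 CPM per kilobase), with all neighbours overlapping, so that the ends of the order stayed and its middle depended on the length used. In control replicates 2 to 4, Epas1 (0.606 CPM per kilobase of span) and Egln1 (0.552) had the highest means and Egln2 (0.0394) the lowest, with neighbours overlapping. The mean of Epas1 rests on control replicate 4 (1.54 CPM per kilobase), as control replicates 2 and 3 had 0.190 and 0.0868 and stood below Arnt, Egln3 and Hif1an in the same libraries.

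The other genes of the pathway were counted in 9 lists of 127 genes, of which 122 were tested. With edgeR on all libraries 0 of the 122 passed the thresholds. At an unadjusted p below 0.05 there were 15 of the 122, beside 26.7% of all genes. Higher in HADA at that p were 12 of the 122, beside 2647 of all 21991 genes. DESeq2 called 11 higher and 4 lower (6.27% and 10.2% of all genes), and edgeR without control replicate 1 called 29 higher and 4 lower (15.5% and 19.7% of all genes). The median log2 fold change of the 122 genes was 0.71 and 85 were positive, beside a median of 0.01 and 50.2% positive for all genes. Without control replicate 1 the list median was 1.10, beside -0.02 for all genes.

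The ligase that Vhl serves had the highest list median, 1.77 over 8 genes, and 6 of 8 were positive. None passed the thresholds of edgeR on all libraries, 3 of 8 had an unadjusted p below 0.05 (26.7% of all genes), and 5 of 8 were called higher without control replicate 1 (15.5% of all genes), where the median was 2.84. Eloc, which encodes the elongin C that Vhl binds, had 222 ± 83.4 CPM in the 4 HADA libraries (mean ± SD) against 17.8 ± 28.03 in the 4 control libraries (log2 fold change 3.67, standard error 1.19, adjusted p = 0.107 from edgeR), with 59.7 CPM in control replicate 1 and at most 7.27 in the others. Its log2 fold change was 5.99 (adjusted p = 0.00743 from edgeR) without control replicate 1. Nedd8, the ubiquitin-like protein that activates cullins, had 336 ± 37.7 CPM in the 4 HADA libraries (mean ± SD) against 82.2 ± 62.6 in the 4 control libraries (log2 fold change 2.03, standard error 0.74, adjusted p = 0.130 from edgeR), and without control replicate 1 a log2 fold change of 2.77 (adjusted p = 0.0163 from edgeR). For both genes, named for the smallest p of the list, every HADA library lay above every control library. The same held for 9.13% of all genes tested.

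Other members of the protein family of Arnt (bHLH-PAS), partners of Arnt among them, had a median of -0.04 over 8 genes. Of these, 4 were positive, and edgeR called 0 with or without control replicate 1. Without that library it called 15.5% of all genes higher and 19.7% lower. Ahr, which encodes the dioxin receptor that also pairs with Arnt, had 2.24 to 69.5 CPM in HADA and 16.9 to 203 in control (log2 fold change -2.14, adjusted p = 0.244 from edgeR). Sim2, a transcription factor that uses Arnt as partner, had 3.27 to 7.09 CPM in HADA and 0 to 4.04 in control (log2 fold change 1.11, adjusted p = 0.347 from edgeR).

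Of the coactivators and regulators of transactivation, 10 of 11 were tested, with a median of 0.84 (1.54 without control replicate 1) and 8 positive. Ldb1, a LIM domain-binding protein, had 41.1 to 67.6 CPM in HADA, 42.3 in control replicate 1 and 1.19 to 5.10 in control replicates 2 to 4 (log2 fold change 2.19, adjusted p = 0.218 from edgeR). Ncoa2, a nuclear receptor coactivator, had a log2 fold change of 1.47 (adjusted p = 0.250 from edgeR). Without control replicate 1, 3 of 10 were called higher, beside 15.5% of all genes.

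Regulators of HIF stability outside the Vhl route had a median of 0.73 (1.38 without control replicate 1) over 15 of 16 genes. Of these, 14 were positive, and edgeR called 1 higher without control replicate 1, beside 15.5% of all genes. Cops5, a subunit of the COP9 signalosome, had a log2 fold change of 2.33 (adjusted p = 0.195 from edgeR), and Os9, a lectin of the endoplasmic reticulum, of 2.22 (adjusted p = 0.267 from edgeR). Os9 had 65.2 CPM in control replicate 1 and 0.978 to 2.76 in control replicates 2 to 4. For the control of HIF1A transcription and synthesis the median was 0.80 (1.44 without control replicate 1) over 11 genes, with 9 positive. Without control replicate 1, edgeR called 3 of these higher and 1 lower, beside 15.5% and 19.7% of all genes. Sp1, a transcription factor, had a log2 fold change of 2.74 (adjusted p = 0.127 from edgeR), and Eif4ebp1, a repressor of cap-dependent translation, of 2.93 (adjusted p = 0.160 from edgeR).

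The HIF target genes had a median log2 fold change of 0.32 over 26 of 29 genes tested, with 18 positive, and a median of 1.47 without control replicate 1. At an unadjusted p below 0.05 there were 4 of 26, beside 26.7% of all genes. Higher in HADA at that p were 3 of the 26, beside 2647 of all 21991 genes. When control replicate 1 was left out, edgeR called 9 of 26 higher and 1 lower, beside 15.5% and 19.7% of all genes. Hmox1, which encodes haem oxygenase and is also a target of Nrf2, had 0.295 to 46.5 CPM in HADA and 0.232 to 3.73 in control (log2 fold change 4.17, standard error 1.35, adjusted p = 0.106 from edgeR), and the lowest HADA library lay inside the control range. Hmox1 had a log2 fold change of 5.10 (adjusted p = 0.0347 from edgeR) without control replicate 1. Car12, a carbonic anhydrase, had 1.503 to 2.35 CPM in HADA and 3.36 to 26.7 in control, where control replicate 1 was highest (log2 fold change -2.41, standard error 0.80, adjusted p = 0.113 from edgeR, and -1.34, adjusted p = 0.0381 from edgeR, without it).

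**Figure D4:**
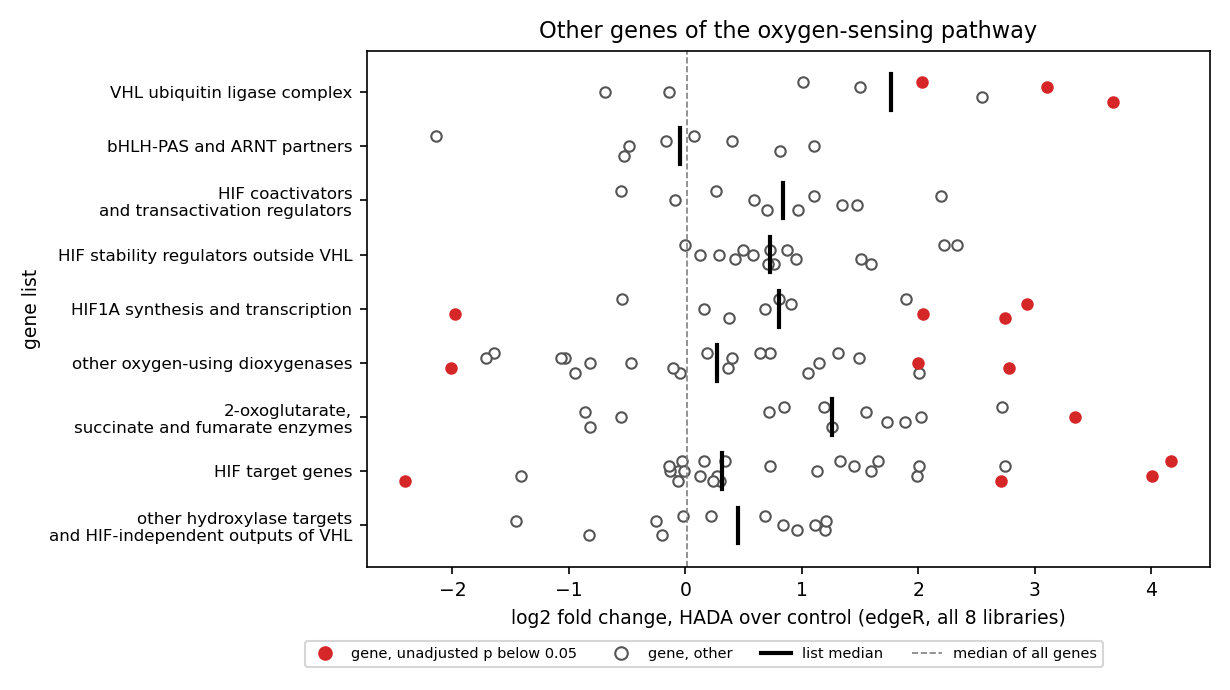
Log2 fold change of HADA over control (edgeR, all 8 libraries) of the tested genes of 9 pathway lists, with genes at an unadjusted p below 0.05 in red, list medians as black bars and the median of all genes, 0.01, as a dashed line. The ligase list has the highest median, 1.77, and the bHLH-PAS list the lowest, -0.04.

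Markers of other blood cells also differed between libraries, and their part in these results was not tested. The erythroid marker Alas2 and the B cell marker Ms4a1 are listed at 0 in all 8 libraries, with 100% of their spans covered by other genes. Other genes also cover most of the spans of Itgam (monocyte list, 99.9%), Gp1bb (platelet list, 92.9%) and Klrb1c (NK list, 83.2%). The summed level of 6 erythroid markers was 28314 CPM in control replicate 1, 1025 to 7307 in control replicates 2 to 4 and 145 to 2806 in HADA (exact permutation test, p = 0.0571). The 6 B cell markers summed to 2003 to 6360 CPM in HADA, 5042 in control replicate 1 and 203 to 3104 in control replicates 2 to 4 (exact permutation test, p = 0.314). The 7 T cell markers summed to 2227 to 8823 CPM in HADA and 176 to 3369 in control (exact permutation test, p = 0.114). The 6 neutrophil markers summed to 89.8 to 124 CPM in HADA and 4.93 to 77.2 in control (exact permutation test, p = 0.0286). That sum rested on different genes, mostly Mmp9 (76.3 CPM) in HADA replicate 3 and Cxcr2 (105 CPM) in HADA replicate 4. S100a8 was highest in control replicate 4 (37.6 CPM), and S100a9 in HADA replicate 1 (42.5 CPM). The 6 platelet markers summed to 277 to 1732 CPM in HADA and 42.7 to 470 in control (exact permutation test, p = 0.0857), the 7 monocyte and macrophage markers to 783 to 3419 and 80.4 to 1765 (exact permutation test, p = 0.229), and the 7 cytotoxic and NK cell markers to 79.1 to 944 and 7.98 to 91.1 (exact permutation test, p = 0.0571).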

How the data were processed

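RNA-seq libraries were made with a cDNA kit for single cells and low input. The authors deposited raw counts per gene, without normalization, from featureCounts after FastQC, Trimmomatic and STAR on GRCm39. Strand and multi-mapping settings are not given in the sources used here. The length column equals the whole gene span for 100% of the 56980 genes. Names came from GENCODE vM39, which holds 98.7% of the identifiers and 8 of the 8 genes examined, and coordinates are those of the deposited table. Totals were 1477431 to 28240337 counts.

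The genes and the 9 pathway lists were chosen with earlier results of these data known. HADA and control were compared with edgeR 4.0.16 (TMM, filterByExpr, quasi-likelihood test without covariates, R 4.3.3) over 21991 genes, with Benjamini-Hochberg adjustment. Standard errors are the log2 fold change over the root of the F statistic. The study's methods name DESeq2, run here as an alternative (version 1.42.0), as was limma 3.58.1 (voom with quality weights). Other alternatives were DESeq2's size factors, no filter, a minimum of 10 counts throughout, draws to the smallest total (without replacement, chosen after the output of thinCounts in edgeR had been seen, which is kept as an added alternative), receptor background subtracted, no mitochondrial, ribosomal or haemoglobin genes, no fold threshold, a replicate block and each library left out. Those added after seeing the data were library totals without TMM, DESeq2 without control replicate 1, control levels per kilobase without it, and the receptor background without its densest 5% of genes. The scripts were tested on simulated data. A floor of 3 counts was used, and floors cover counting error only. For single values, groups of libraries were compared by exact permutation tests, two-sided.

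Named from each list were the genes past the thresholds or, where there were none, the 2 with the smallest p, and for each gene examined the protein-coding gene with the nearest profile. Genes of the marker check were singled out after their values were seen. Same-numbered libraries had correlated deviations between -0.21 and 0.25, with 1 of 4 pairs above 0.1, so the numbers were not taken as pairs. Tables and promoter searches used Python 3.11.15, pandas 2.3.3, numpy 2.4.6 and scipy 1.17.1. Chromatin accessibility and protein sequences were not analysed here.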

Additional observations from a re-analysis of the deposited data

Results flagged for a closer look

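Of 18 groups of 4 libraries checked for a library far from the rest, 1 was marked, where chance marks about 0.9. It was Egln2 in HADA, where replicate 4 had a log2 CPM of 5.84 and the other HADA libraries 4.74 to 4.82, so that the gap to the nearest library was 0.924 of the whole range. In the same library Vhl was also the highest of the HADA group (97.5 CPM), and the TMM factor was the lowest of the 8 libraries (0.628). The part of these in the high Egln2 value was not tested.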

How the results depend on the processing

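The 7 genes kept their direction in all but 1 of 135 combinations of gene and alternative that gave a value, and 17 of these were past the thresholds where the reported value was not. The exception was Arnt, at -0.93 (adjusted p = 0.855 from edgeR) when libraries were drawn down with thinCounts of edgeR, which gave 62 higher and 52 lower of all genes. That sampler, used first, left 8.81 to 16.4 times the variance that drawing leaves, and the draw without replacement, put in its place after this output was seen, 0.98 to 1.03 times. Without replacement Arnt was at 0.59 (adjusted p = 0.787 from edgeR). Counts past the thresholds (higher and lower in HADA) were 0 and 0 for the 7 genes, 0 and 0 for the pathway lists and 363 and 105 for all genes. DESeq2 gave 1 and 1, 11 and 4, and 2026 and 3296. Limma voom gave 4 and 0, 52 and 6, and 5197 and 5613. DESeq2 without control replicate 1, added after seeing the data, gave 5 and 1, 40 and 4, and 6028 and 6000. When libraries were left out one at a time the counts were 0 to 4 and 0 to 1 for the 7 genes, 0 to 29 and 0 to 4 for the lists, and 28 to 3716 and 1 to 4732 for all genes, the upper ends without control replicate 1 and the lowest counts for all genes without control replicate 3. For all genes, no filter gave 54 lower, at least 10 counts in every library 93 higher, drawing down 127 higher, subtracting the receptor background 107 higher, and library totals without TMM 206 higher and 180 lower. Without mitochondrial, ribosomal and haemoglobin genes, 1 list gene was higher and 46 of all genes were lower. The cause of these shifts was not tested.

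The replicate block gave 158 higher and 11 lower of all genes and called none of the 7 genes. Under it Egln2 had a log2 fold change of 5.70 (adjusted p = 0.1704 from edgeR). The numbers do not mark pairs in the labels.

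Over all genes the median log2 fold change was 0.01 in the reported fit, -0.19 with DESeq2's size factors, -0.71 without TMM, -0.99 with DESeq2 and 1.01 after subtracting the receptor background, so folds from those settings are not on one scale. After that subtraction Epas1 no longer passed the filter, and drawn down to 1477431 counts it did not either. With at least 10 counts in every library 4 of the 7 genes were left. An estimate of the share of counts in introns was not run. In control replicate 1 the floor of 3 counts is 1.86 CPM, and its Epas1 and Egln3 lay under that.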

Other observations

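Oxygen is also a substrate of other dioxygenases, among them collagen hydroxylases, histone demethylases and TET enzymes. These 22 genes had a median log2 fold change of 0.28 with 12 positive, and 0 passed the thresholds of edgeR, where 3 of 22 had an unadjusted p below 0.05 (26.7% of all genes) and limma voom called 7 higher and 3 lower (23.6% and 25.5% of all genes). Plod2, a collagen lysyl hydroxylase, had 2.83 to 4.86 CPM in HADA and 11.4 to 20.6 in control, without overlap (log2 fold change -2.01, standard error 0.68, adjusted p = 0.116 from edgeR). Of all genes tested, 5.70% were lower in HADA without overlap. Ogfod1, which hydroxylates a ribosomal protein, had 8.13 to 85.8 CPM in HADA and 2.38 to 12.7 in control (log2 fold change 2.78, standard error 0.95, adjusted p = 0.118 from edgeR). Without control replicate 1, 5 of the 22 were called higher and 2 lower (15.5% and 19.7% of all genes), Plod2 among the latter (log2 fold change -1.92, adjusted p = 0.0182 from edgeR).

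The enzymes that make or use 2-oxoglutarate, succinate and fumarate, the co-substrate and inhibitors of the hydroxylases, had a median log2 fold change of 1.26 over 13 genes. Of these, 10 were positive and 0 passed the thresholds of edgeR. Limma voom called 5 higher, beside 23.6% of all genes. EdgeR called 3 of 13 higher when control replicate 1 was left out, beside 15.5% of all genes. On all libraries, edgeR gave 1 of 13 an unadjusted p below 0.05, beside 26.7% of all genes. The gene below that p was Sdhd, a membrane anchor of succinate dehydrogenase, with 33.8 to 105 CPM in HADA, 31.1 in control replicate 1 and 0.348 to 1.03 in control replicates 2 to 4 (log2 fold change 3.35, standard error 1.40, adjusted p = 0.162 from edgeR, and 7.04, adjusted p = 0.00465 from edgeR, without control replicate 1). Idh2, the mitochondrial isocitrate dehydrogenase, had 21.2 to 781 CPM in HADA and 1.47 to 148 in control (log2 fold change 2.72, adjusted p = 0.230 from edgeR). Other targets of the hydroxylases and of Vhl had a median of 0.45 over 12 genes with 7 positive, 0 past the thresholds of edgeR, 0 at an unadjusted p below 0.05 and 3 of 12 called higher by limma voom (23.6% of all genes), and without control replicate 1 edgeR called 2 of 12 higher (15.5% of all genes). Zhx2, a transcription factor bound by Vhl, had a log2 fold change of 1.21 (adjusted p = 0.357 from edgeR), and Cep192, a centrosome protein, of 1.20 (adjusted p = 0.359 from edgeR).

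The nearest profile among 16445 protein-coding genes, by Euclidean distance of centred log2 CPM over the 8 libraries, was that of Ryr2 for Egln3 (distance 0.479, median over genes 5.64), Atl3 for Egln1 (0.720, median 5.44), Vcf1 for Hif1an (0.747, median 7.19), Rmdn1 for Arnt (0.861, median 5.35), Neu1 for Egln2 (1.06, median 9.92), Rabif for Vhl (1.15, median 7.80) and Fkbp9 for Epas1 (1.23, median 6.38). Ryr2 had 460 to 822 CPM in HADA, 21.1 in control replicate 1 and 72.1 to 168 in control replicates 2 to 4. Neu1, like Egln2, had 63.4 CPM in control replicate 1 and 0.116 to 0.978 in control replicates 2 to 4.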
